A study of Mus musculus with 36 samples.

Results

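Cromolyn is a drug used to hold mast cells in their unreleased state, and the comparison here asks whether the timing of that drug, with the carcinogen or after it, was followed by a different immune and tumour gene profile in the colon. It takes 6 of the 36 samples of the series, chosen by their labels: 3 libraries from mice given cromolyn during azoxymethane (AOM), called the during group, and 3 libraries from mice given cromolyn after AOM, called the after group. All 988 genes of the panel were described. Both groups were wild-type C57BL/6 mice aged 14 weeks, both received AOM over 3 weeks, and the labels name the tissue as preneoplastic lesions of the colon. The during group had cromolyn over the same 3 weeks as AOM and was killed 3 weeks later. The after group had cromolyn over the 3 weeks that followed AOM and was killed at their end. The groups therefore also differ in the time between the last cromolyn and collection, and the timing relative to AOM and the time since the drug cannot be told apart. Another group of 3 libraries, AOM only, had the same strain and age and received AOM over 3 weeks without cromolyn. The number of AOM injections is recorded as 3 for AOM only and is not recorded for the cromolyn groups. The levels of the AOM-only group stand beside the others as a description, and it entered the same fit for the estimate of the spread. Neither the dose of cromolyn nor a vehicle for the AOM-only mice is given in the sources used here. Whether each sample is a mouse of its own is not in the labels, and the p-values hold for the spread among these libraries, part of which may be technical.

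AOM is a methylating carcinogen that produces aberrant crypts and later tumours of the distal colon. Mast cells are tissue-resident cells that carry the stem cell factor receptor Kit and store histamine, chymases, tryptases and carboxypeptidase in granules, which they release together with lipid mediators and cytokines when triggered. In the colon they lie in the mucosa and submucosa near vessels, nerves and other leukocytes. The panel measures transcripts and not this release.

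The panel counts 1 short stretch of each chosen transcript. The 6 cromolyn libraries held between 449880 and 514208 counts and detected between 879 and 900 genes, and the 3 AOM-only libraries held between 470661 and 544886 counts and detected between 877 and 884 genes. Levels below are given as CPM, counts relative to the library total after TMM scaling of the library sizes, and values of a group are listed for libraries 1, 2 and 3. The labelled tissue was checked on the few defining markers that the panel holds. Epcam, the adhesion protein of epithelial cells, was present in all 9 libraries, from 9513 to 17863 CPM, and so was Car4, the carbonic anhydrase of surface colonocytes, from 7926 to 45606 CPM. The panel carries none of the goblet cell markers listed for this work and only Ncam1 of the muscle and neuron markers, so the share of those cells cannot be read.

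By B cell genes, library 1 of the during group and library 3 of the after group were the highest of their groups. This was clearest for Ms4a1 and Cr2 and was found by looking at the data. The summed B and plasma cell list was 5916, 3677 and 4320 CPM in the during group. In the after group it was 4513, 5147 and 5202 CPM, where library 3 hardly exceeded library 2. Ms4a1, which encodes the B cell surface protein CD20, measured 899, 127 and 243 CPM in the during group and 91.6, 311 and 712 CPM in the after group. Cr2, the complement receptor of B cells and follicular dendritic cells, measured 201, 46.1 and 60.2 CPM against 23.9, 85.9 and 141 CPM. For both genes the groups overlapped over nearly their whole range. In the AOM-only group Ms4a1 lay between 48.1 and 127 CPM. The deviations of these 2 libraries from their group means correlated at r = 0.54 across the tested genes, which are not independent replicates. It was the largest r of the pairs across groups, followed by 0.46 for during library 2 and after library 1. Many, though not all, of the results that leaving out 1 or both of these 2 libraries alters by over 1.5 times are therefore also given without 1 or both. In tissue of this kind fewer cells of a type and less RNA per cell cannot be told apart.

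No gene separated the groups past the threshold. With edgeR's quasi-likelihood test and Benjamini-Hochberg adjustment, 0 of the 768 genes with enough counts to test had an adjusted p below 0.05 (0%), and the smallest adjusted p was 0.0629. At an unadjusted p below 0.05 there were 64 genes (8.33%), 34 higher in the during group (4.43%) and 30 lower (3.91%), where 38.4 would be reached with no difference at all. DESeq2, run as an alternative, called 6 of 941 genes (0.638%), namely Ccl5, Nkg7 and Spon2 at higher and Emp1, Me1 and Tmigd1 at lower levels in the during group. The 3 libraries of one group lay wholly above or below the 3 of the other for 101 genes (13.2%), 53 of them higher in the during group (6.9%) and 48 lower (6.25%). Distances between whole profiles overlapped within and across groups. The root mean square log2 distance between 2 libraries lay between 0.513 and 0.644 within the during group, between 0.473 and 0.718 within the after group, and between 0.399 and 0.763 across the groups. The median 95% interval of a gene reached 0.455 to each side on the log2 scale, which shows the precision of a design of this size. In counts simulated on these libraries, the same test found 71.7% of genes set to a log2 difference of 1 among the 761 genes that entered it. There 99 genes were set to a difference of 1 and 100 to 2, a far larger share than was called here. The adjustment is more lenient when more genes are changed, so the 71.7% does not carry over to these data.

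**Figure D1:**
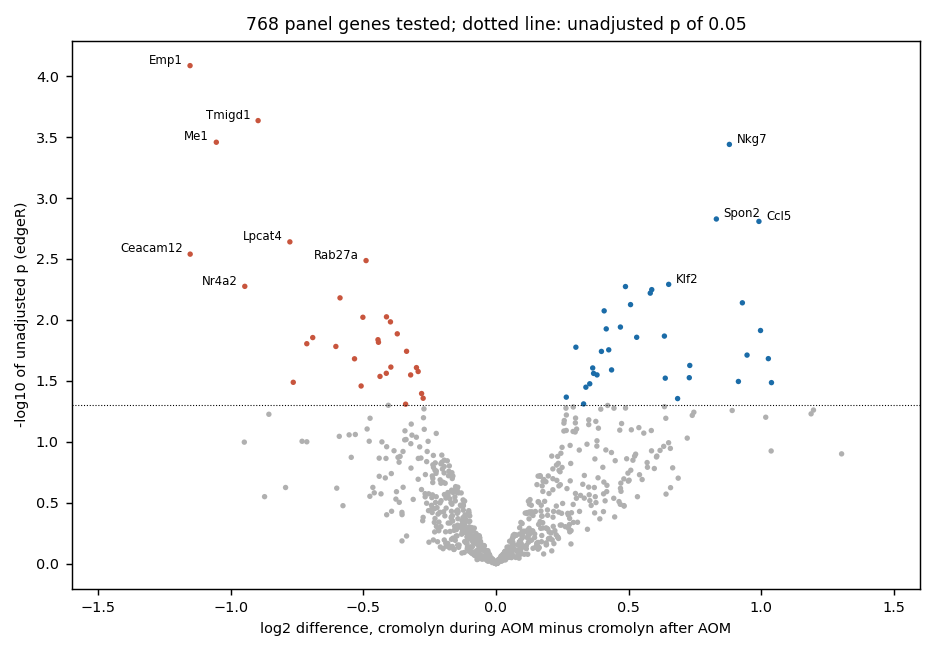
Log2 difference between the groups (x axis, during minus after) against the negative log10 of the unadjusted p (y axis) for the 768 tested genes, with genes below an unadjusted p of 0.05 in blue where higher and red where lower in the during group. The 11 genes of smallest p are labelled, none of which passed adjustment, and 10 genes lie beyond a log2 difference of 1 in either direction.

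Directions below hold on the TMM scale and depend in part on it. The reference transcripts Rpl13a, B2m and Tfrc took 11% to 11.2% of the counts in the during group and 8.78% to 9.15% in the after group. Rpl13a, a ribosomal protein gene, measured 62532, 73247 and 76382 CPM against 58347, 57792 and 45189 CPM (log2 difference 0.40, SE 0.19), and B2m is itself a chain of MHC class I. Scaling to these 3 transcripts moved the median of all genes to -0.38 on the log2 scale. On that scale the list medians were 0.31 for cytotoxic and NK cells, 0.22 for inflammatory cytokines, 0.0045 for MHC class II and -0.96 for surface colonocytes. Those of chemokines and receptors (-0.04), macrophages and monocytes (-0.10), regulatory T cells (-0.17), MHC class I (-0.16), interferon-gamma genes (-0.26) and T cells (-0.30) turned below 0, though above the median of all genes. With library totals and no TMM scaling the median of all genes was -0.06, and the medians of B and plasma cells (-0.03) and lymphoid tissue (-0.05) turned below 0.

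On the side of lower levels in the during group the smallest p-values belonged to Emp1, Tmigd1 and Me1, the first and second of which are on the list of surface colonocyte genes. Emp1, an epithelial membrane protein linked to cell contacts and differentiation, measured 930, 624 and 732 CPM in the during group and 1292, 1852 and 1936 CPM in the after group. Every during library lay below every after library. The log2 difference was -1.15 (SE 0.20, 95% interval -1.59 to -0.72, adjusted p from edgeR 0.0629), and the AOM-only libraries measured 689, 729 and 1002 CPM, close to the during group. Tmigd1, an adhesion molecule of mature intestinal epithelium, measured 417, 340 and 410 CPM against 671, 794 and 705 CPM. The groups did not overlap, with a log2 difference of -0.90 (SE 0.18, adjusted p from edgeR 0.0697). The AOM-only libraries, at 494, 396 and 653 CPM, reached from the level of the during group up to nearly that of the after group. Me1, the cytosolic malic enzyme that supplies NADPH for lipid synthesis, measured 375, 359 and 331 CPM against 828, 754 and 633 CPM. It also showed no overlap, with a log2 difference of -1.05 (SE 0.22, adjusted p from edgeR 0.0697), and 2 of the 3 AOM-only libraries (564, 290 and 327 CPM) lay below the during group. These 3 genes had an adjusted p below 0.05 in DESeq2 (Emp1 0.000143, Tmigd1 0.00487, Me1 0.00487). They also passed in edgeR when the AOM-only library 2 was left out (adjusted p 0.0430 for each), and 1 or 2 of them passed without AOM-only library 1 or 3, during library 1 or after library 1, so that the call depends on which libraries enter the fit. Over all alternatives the adjusted p reached from 0.000143 to 1 for Emp1, from 0.00265 to 1 for Tmigd1 and from 0.000968 to 1 for Me1. The upper end came from the fit with all 25 libraries, in which no gene had a lower value. Outside that fit the largest adjusted p from edgeR was 0.395 for Emp1 and 0.439 for Me1.

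Of the 16 surface colonocyte genes listed for this work, 5 were on the panel and all were tested. The list was written with earlier results of these data known, so its direction is not independent evidence. Of these genes 4 lay below 0 on the log2 scale without overlap between groups, where 6.25% of all tested genes did so. The median of the list was -0.59 against -0.00247 for all genes tested. Besides Emp1 and Tmigd1 they were Ceacam1, an adhesion molecule of the colonocyte surface, and Cd177, a surface glycoprotein known from neutrophils and also found on colonic epithelium. Ceacam1 measured 35849, 43457 and 36204 CPM in the during group and 56136, 63444 and 54042 CPM in the after group (log2 difference -0.59, SE 0.18, adjusted p from edgeR 0.338), with the AOM-only libraries at 52882, 34845 and 48983 CPM reaching from just below the during group up to near the after group. Cd177 measured 6287, 6950 and 5547 CPM against 9418, 7118 and 9034 CPM, and 4457, 5965 and 5862 CPM with AOM only. The exception was Car4, at 11885, 14499 and 32560 CPM against 18017, 22659 and 7926 CPM, which overlapped widely and had a log2 difference of 0.28 (SE 0.45). With AOM only Car4 lay between 30482 and 45606 CPM. The summed level of the list overlapped, at 55367 to 75451 CPM in the during group against 73642 to 95867 CPM in the after group. It was 81285 to 104128 CPM with AOM only. Ceacam1 and Car4 held a large part of this sum, so it does not describe each member. Epcam did not differ beyond its spread (log2 difference 0.01, 95% interval -0.40 to 0.42).

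Ceacam12, another member of the carcinoembryonic antigen family, measured 76.4, 59.5 and 53.2 CPM in the during group and 155, 120 and 146 CPM in the after group. The log2 difference was -1.15 (SE 0.31, adjusted p from edgeR 0.277), and both cromolyn groups lay above the AOM-only libraries, which held 28.8, 9.25 and 14.0 CPM. Members of this family resemble each other in sequence, so counts may be shared between them. Nr4a2, a nuclear receptor induced early after many stimuli, also lay above AOM only (36, 35.2 and 58.1 CPM) in both groups, at 67.7, 61.5 and 62.5 CPM during and 104, 109 and 157 CPM after AOM (log2 difference -0.95, SE 0.28). Lpcat4, an acyltransferase of membrane phospholipids, measured 151, 173 and 146 CPM against 277, 231 and 298 CPM (log2 difference -0.78, SE 0.20). Rab27a, a small GTPase that docks secretory granules at the membrane in mast cells and other secretory cells, measured 408, 473 and 394 CPM against 633, 605 and 553 CPM (log2 difference -0.49, SE 0.14, adjusted p from edgeR 0.278). In each of these genes the groups did not overlap, and none passed adjustment.

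The other lower genes among the 24 of smallest p were Atf4, Wars and Crebzf, whose groups did not overlap. Atf4, the transcription factor of the integrated stress response, measured 1759, 1986 and 1537 CPM in the during group and 2586, 2012 and 2365 CPM in the after group (log2 difference -0.40, SE 0.13). Wars, the tryptophan tRNA synthetase, measured 2992, 3554 and 2262 CPM against 4600, 3944 and 3932 CPM (log2 difference -0.50, SE 0.16). Crebzf, a basic leucine zipper regulator of transcription, measured 452, 588 and 491 CPM against 721, 655 and 664 CPM (log2 difference -0.41, SE 0.13). The after group was the higher one in each, and the AOM-only means, 1728, 2877 and 563 CPM in the same order, lay nearer to the during group. Their adjusted p-values from edgeR lay between 0.365 and 0.379.

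**Figure D2:**
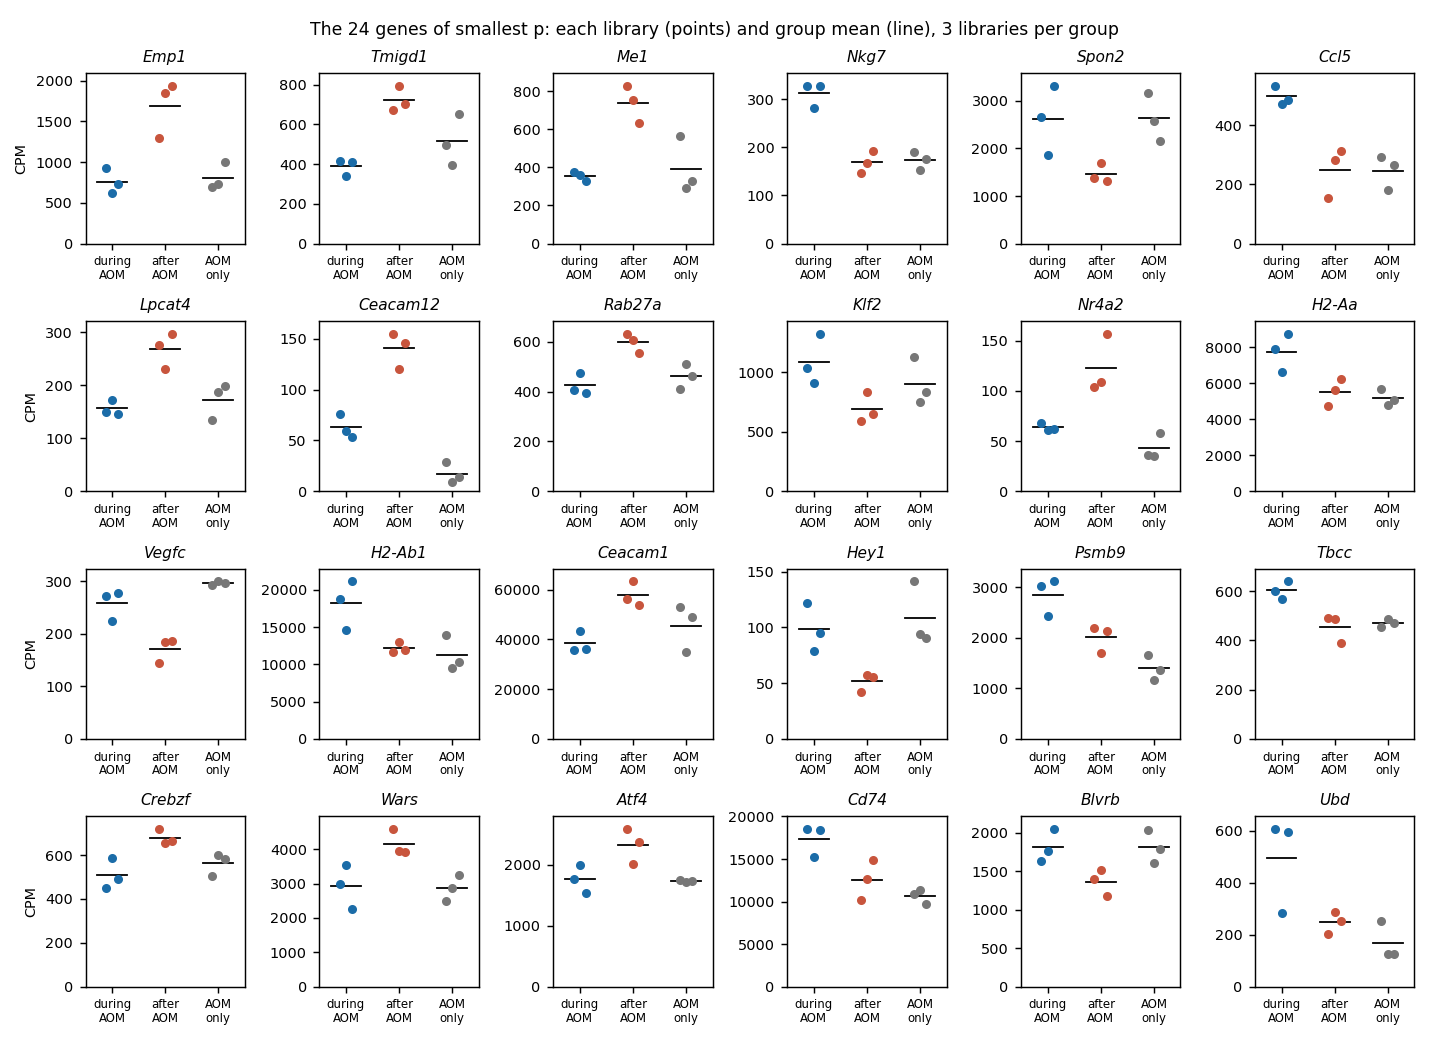
CPM of the 24 genes of smallest p (y axes, each from 0) in the 3 libraries of each group, with points for libraries and lines for group means. The during and after points do not overlap in any panel except Ubd, and for the 11 genes lower in the during group the AOM-only mean lies nearer to the during mean. The genes were chosen by their p in this same comparison, so the separation of during and after points follows in large part from the choice.

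On the side of higher levels in the during group the smallest p-values belonged to Nkg7, Spon2 and Ccl5. Nkg7, a granule membrane protein of natural killer and cytotoxic T cells, measured 327, 282 and 326 CPM in the during group and 147, 168 and 192 CPM in the after group. Each during library was higher than each after library, and the AOM-only libraries, at 190, 152 and 176 CPM, matched the after group in range. The log2 difference was 0.88 (SE 0.18, 95% interval 0.49 to 1.27, adjusted p from edgeR 0.0697, adjusted p from DESeq2 0.00715). Ccl5, a chemokine for T cells, eosinophils and monocytes that is made by activated T and NK cells, measured 532, 473 and 486 CPM against 153, 283 and 313 CPM. The groups did not overlap, and the AOM-only libraries (293, 181 and 265 CPM) again lay at the level of the after group. Its log2 difference was 0.99 (SE 0.25, adjusted p from edgeR 0.199, adjusted p from DESeq2 0.0302). Over all alternatives the adjusted p reached from 0.00715 to 1 for Nkg7 and from 0.0302 to 1 for Ccl5, and neither passed outside DESeq2. The upper end again came from the fit with all 25 libraries.

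Of 20 listed genes of cytotoxic and NK cells, 14 were on the panel and 6 were tested, 5 of them above 0 where 49.5% of all tested genes were, with a median log2 difference of 0.69. Only Nkg7 among them had groups that did not overlap. Gzma, a granzyme, measured 203, 206 and 125 CPM against 63.7, 43.9 and 154 CPM (log2 difference 1.03, SE 0.39), and Gzmb, another granzyme, 63.3, 113 and 37.0 CPM against 13.9, 28.6 and 62.9 CPM (log2 difference 1.02, SE 0.50). In both, after library 3 was the highest of its group and overlapped the during group. That library is also the one with the highest B cell genes of its group. Without it the log2 difference was 1.72 for Gzma (adjusted p from edgeR 0.063) and 1.74 for Gzmb, and without it and during library 1 it was 1.63 for Gzma and 1.83 for Gzmb. Gzmb differed by 0.50 without during library 2 and by 0.65 without after library 1. Without both libraries the list's median was 0.93, with all 6 members above 0. The summed level of the list lay between 706 and 834 CPM in the during group, between 348 and 625 CPM in the after group and between 326 and 463 CPM with AOM only. Klrd1, a receptor subunit of NK cells, had a log2 difference of 0.50 (SE 0.38), which was 0.32 without during library 1 and 0.78 without during library 2.

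The T cell list lay closer to 0. Of 15 tested T cell genes 10 lay above 0, with a median of 0.06 that ran from -0.12 (without during library 1) to 0.36 (without after library 3) when 1 library was left out. Zap70, the kinase next to the T cell receptor, measured 135, 96.0 and 90.3 CPM against 57.7, 72.5 and 75.9 CPM without overlap (log2 difference 0.64, SE 0.26, adjusted p from edgeR 0.444), and was the only listed T cell gene with groups apart. Cd3d, a chain of the receptor complex, measured 137, 73.0 and 92.6 CPM against 33.8, 82.1 and 87.0 CPM and overlapped (log2 difference 0.57, and 0.28 without during library 1 or 0.25 without after library 1). Cd8a, which marks cytotoxic T cells, measured 43.6, 36.5 and 46.3 CPM against 19.9, 36.3 and 42.6 CPM and overlapped (log2 difference 0.34, SE 0.52). Its log2 difference was 0.09 without after library 1 and 0.57 without after library 3. It was 0.54 without after library 3 and during library 1.

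Inflammatory cytokines stood above 0 in all 11 tested members of 15 on the panel, with a median log2 difference of 0.61, and 3 of them (Ccl4, Ccl5 and Cxcl10) did not overlap between groups, where 6.9% of all tested genes were apart in that direction. Without the 2 libraries highest in B cell genes the median was 0.36, with all 11 above 0. Cxcl10, an interferon-induced chemokine for activated T and NK cells, measured 441, 271 and 407 CPM against 231, 221 and 266 CPM (log2 difference 0.64, SE 0.29). Ccl3, a chemokine of macrophages and mast cells, measured 67.7, 28.8 and 44 CPM against 37.8, 15.3 and 22.2 CPM and overlapped (log2 difference 0.89, SE 0.42). It differed by 0.53 without during library 1 and by 0.44 without that library and after library 3. Il18, an epithelial cytokine cleaved by the inflammasome, measured 4463, 5503 and 7304 CPM against 4724, 4826 and 2339 CPM, with AOM only between 6281 and 8219 CPM. Its log2 difference of 0.54 (SE 0.27) was 0.27 without after library 3 and 0.33 without during library 3. Tnf (log2 difference 0.57, SE 0.38) and Il1b (log2 difference 0.61, SE 0.38) had intervals that include 0, as did every other tested member of the list except Ccl5. The summed level of the list was 9085 to 12130 CPM in the during group and 6084 to 8844 CPM in the after group. With AOM only it was 11235 to 13586 CPM, the highest of the 3. Il18 held a large part of this sum, so the sum does not describe each member. Ccl5 with AOM only lay at the level of the after group.

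The wider list of chemokines and receptors had 20 of 24 tested genes above 0 and a median of 0.33, with 5 genes apart between groups, beside 49.5% above 0 and 6.9% apart on the higher side over all tested genes. The median was 0.21 without during library 1 and 0.50 without during library 2. It shares Ccl4, Ccl5 and Cxcl10 with the cytokine list. Ccr2, the receptor that brings monocytes into tissue, measured 61.1, 30.7 and 23.1 CPM against 17.9, 22.9 and 14.8 CPM (log2 difference 1.04, SE 0.43, adjusted p from edgeR 0.457). It differed by 0.54 without during library 1 and by 0.41 without that library and after library 3. Cxcl9, an interferon-gamma target and partner of Cxcl10, measured 284, 211 and 127 CPM against 104, 89.7 and 130 CPM, where the lowest during library lay within the after range. Among macrophage and monocyte genes 10 of 14 tested lay above 0 (median 0.28, with 0.11 without during library 1, 0.05 without after library 1 and 0.42 without after library 3). Cd14, a co-receptor for bacterial lipopolysaccharide, measured 696, 768 and 919 CPM against 625, 670 and 588 CPM without overlap (log2 difference 0.34, SE 0.14), and Ccl2 and Msr1 overlapped (log2 differences 0.63 and 0.45, and 0.34 and 0.10 without during library 1).

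Genes of MHC class II, which present peptides to CD4+ T cells and are carried by B cells, dendritic cells, macrophages and, under interferon-gamma, by epithelium, had no member past adjustment. The expression of this family is set through a shared promoter module whose Y box binds the factor NF-Y. The 2 promoters below, of the alpha chain of I-A and the beta chain of I-E, show that box in capitals and are printed because both genes lay apart between the groups. Each line holds the 120 bases before the transcript start, 5′ to 3′ on the coding strand, from RefSeq on GRCm38.p6. The submitters' processing notes name another build, mm9, for the counts, and no coordinate was carried between them.
H2-Aa, chr17:34287824-34287943, minus strand: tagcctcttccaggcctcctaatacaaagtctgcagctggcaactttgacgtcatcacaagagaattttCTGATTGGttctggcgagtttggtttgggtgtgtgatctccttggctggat
H2-Eb1, chr17:34305747-34305866, plus strand: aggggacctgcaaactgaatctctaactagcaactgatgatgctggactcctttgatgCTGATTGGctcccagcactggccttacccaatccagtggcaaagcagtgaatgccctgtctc
The box begins 51 bases before the start in H2-Aa and 62 bases before it in H2-Eb1. The letters CTGATTGG, read on both strands, occur in 1346 of 32851 RefSeq promoter windows of 300 bases (4.10%). Of the 9 genes of the class II list on the panel 6 had such a window, Ctss without the letters among them. The letters were held by 4 (H2-Aa, H2-Eb1, H2-Eb2 and H2-Oa). Of these, H2-Aa and H2-Eb1 were higher in the during group and H2-Eb2 and H2-Oa, not printed, were lower there, none past adjustment. A match describes the sequence only.

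H2-Aa measured 7900, 6648 and 8778 CPM in the during group and 4754, 5641 and 6232 CPM in the after group. H2-Ab1, the beta chain that pairs with it, measured 18735, 14643 and 21154 CPM against 11589, 12992 and 11854 CPM. Cd74, the invariant chain that fills the class II groove until peptide is loaded, measured 18552, 15187 and 18413 CPM against 10210, 12614 and 14848 CPM. In all 3 genes each during library exceeded each after library. The log2 differences were 0.49 for H2-Aa (SE 0.15), 0.58 for H2-Ab1 (SE 0.18) and 0.47 for Cd74 (SE 0.16), with adjusted p-values from edgeR of 0.331, 0.331 and 0.383. H2-Eb1 measured 2645, 2507 and 2750 CPM against 1853, 2176 and 2426 CPM, also without overlap (log2 difference 0.29, SE 0.14, adjusted p from edgeR 0.567). With scaling to the reference transcripts H2-Eb1 turned to -0.084 and Cd74 was at 0.09. The AOM-only libraries lay between 4809 and 5681 CPM for H2-Aa, inside the range of the after group, and between 9756 and 11390 CPM for Cd74, at its low end.

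Of 8 tested genes of the class II list 6 lay above 0, with a median log2 difference of 0.38. The groups were apart for 4 of them, where 6.9% of all tested genes were apart in that direction. Ciita, the transactivator of the family, measured 384, 254 and 280 CPM against 165, 214 and 274 CPM and overlapped (log2 difference 0.49, SE 0.23). The 2 members below 0 were H2-Eb2 (148, 38.4 and 76.4 CPM against 41.8, 82.1 and 176 CPM) and H2-Oa (63.3, 21.1 and 37.0 CPM against 19.9, 42.0 and 68.5 CPM), whose highest libraries were the 2 with the highest B cell genes. The summed B and plasma cell list overlapped between groups, at 3677 to 5916 CPM in the during group against 4513 to 5202 CPM in the after group. Without the 2 libraries highest in B cell genes the class II median was 0.44. Chains of this family are alike in sequence, so counts may be shared between H2-Eb1 and H2-Eb2.

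MHC class I and its peptide supply gave a divided picture. Of 22 tested genes 15 lay above 0 (median 0.21), with 3 apart on the higher and 3 on the lower side, beside 6.9% and 6.25% of all tested genes. The median was 0.13 without during library 1. Psmb9, a catalytic subunit of the immunoproteasome, measured 3022, 2434 and 3125 CPM in the during group and 2192, 1709 and 2135 CPM in the after group (log2 difference 0.51, SE 0.16, adjusted p from edgeR 0.338). Psmb10, another such subunit, measured 12889, 12469 and 14110 CPM against 11566, 10291 and 8795 CPM (log2 difference 0.36, SE 0.14). The loading chaperones of the endoplasmic reticulum lay the other way. Pdia3 measured 15907, 15300 and 12519 CPM against 18626, 16946 and 23870 CPM (log2 difference -0.44, SE 0.16, and -0.29 without after library 3), and Canx, which encodes calnexin, 4005, 4779 and 3982 CPM against 5343, 4853 and 5761 CPM (log2 difference -0.32, SE 0.13). In these 4 genes the groups did not overlap, and no adjusted p passed.

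Ubd, the ubiquitin-like modifier FAT10 that interferon-gamma and tumour necrosis factor induce, measured 607, 282 and 595 CPM against 203, 286 and 252 CPM (log2 difference 1.00, SE 0.33, adjusted p from edgeR 0.383). During library 2 lay within the after range. Over the interferon-gamma list 11 of 16 tested genes lay above 0, with a median of 0.11, and 3 were apart on the higher side (Cxcl10, Psmb9 and Psmb10, each also in another list), beside 6.9% of all tested genes. The median lay between 0.07 and 0.29 when 1 library was left out and was 0.05 without the 2 libraries highest in B cell genes.

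Of 16 tested genes of the type I interferon response 4 lay above 0 and 12 below, with a median of -0.06, and after library 3 held the highest summed level of the list. Oas2, which makes the second messenger that activates RNase L, measured 218, 61.5 and 167 CPM in the during group and 102, 101 and 609 CPM in the after group (log2 difference -0.87, SE 0.76). Irf7, the factor that amplifies the response, measured 1002, 465 and 1252 CPM against 464, 577 and 1799 CPM. Without after library 3 the median was 0.38, with 14 of 16 genes above 0, and the log2 difference of Oas2 was 0.55. The median was also above 0 without during library 2 (0.05), and 0.25 without after library 3 and during library 1, where Oas2 differed by 0.15. Without any other single cromolyn library it lay between -0.26 and -0.18. Ifi27, the only listed gene with groups apart, measured 2228, 2034 and 2949 CPM against 1598, 1907 and 2032 CPM (log2 difference 0.38, SE 0.22).

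**Figure D3:**
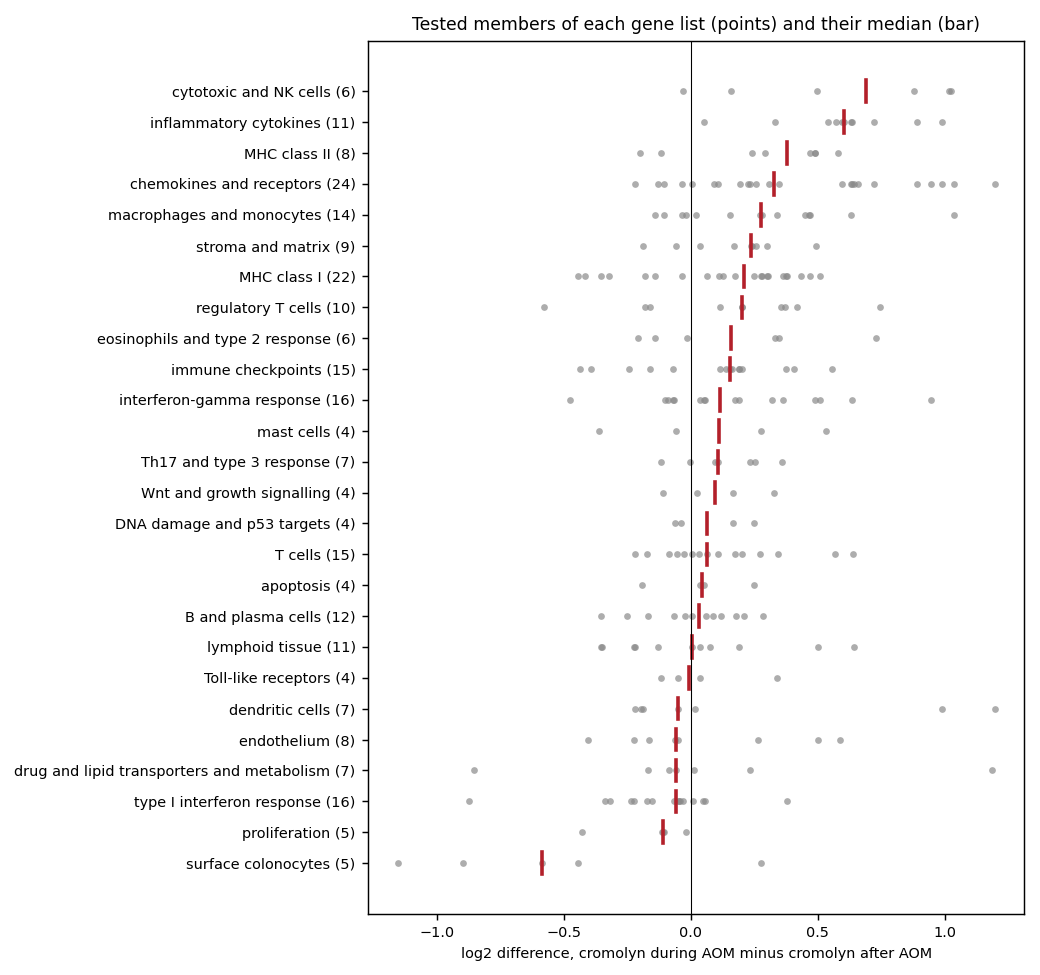
Log2 differences (x axis, during minus after) of the tested members (grey points) of the 26 gene lists with at least 4 tested genes, on the TMM scale, ordered by their median (red bar), with the number tested in brackets. Medians run from -0.59 for surface colonocytes to 0.69 for cytotoxic and NK cells, and no single gene passed adjustment.

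Spon2, Vegfc, Hey1 and Klf2 were also higher in the during group among the 24 genes of smallest p. Spon2, a secreted matrix protein that binds bacterial surfaces and supports phagocytosis, measured 2667, 1858 and 3317 CPM in the during group and 1383, 1699 and 1323 CPM in the after group. The groups did not overlap, and the AOM-only libraries, at 3167, 2585 and 2162 CPM, lay with the during group. The log2 difference was 0.83 (SE 0.20, adjusted p from edgeR 0.199, adjusted p from DESeq2 0.0302, the lowest over all alternatives, which reached 1 with all 25 libraries). Vegfc, the growth factor of lymphatic vessels, measured 271, 225 and 278 CPM against 143, 183 and 187 CPM, and 293, 300 and 297 CPM with AOM only (log2 difference 0.59, SE 0.18). Hey1, a Notch target of endothelium, measured 122, 78.8 and 94.9 CPM against 41.8, 57.3 and 55.5 CPM, with AOM only at 142, 94.4 and 90.2 CPM (log2 difference 0.93, SE 0.29). Klf2, a factor of resting endothelium and naive lymphocytes, measured 1032, 907 and 1326 CPM against 591, 836 and 650 CPM (log2 difference 0.65, SE 0.19). In Spon2, Vegfc and Hey1 all 3 AOM-only libraries exceeded all after libraries. The endothelium list as a whole had 3 of 8 tested genes above 0 (median -0.06, which ran from -0.14 to 0.14 when 1 library was left out).

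Tbcc and Blvrb complete the 24 genes. Tbcc, a cofactor for tubulin folding, measured 602, 571 and 641 CPM against 492, 487 and 389 CPM (log2 difference 0.41, SE 0.13). Blvrb, a reductase of biliverdin and flavins, measured 1637, 1763 and 2051 CPM against 1393, 1510 and 1182 CPM (log2 difference 0.42, SE 0.14). Neither showed overlap, and their adjusted p-values from edgeR were 0.360 and 0.383.

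The mast cell genes themselves gave no difference past the threshold. Of 21 listed genes 9 were on the panel and 4 had enough counts to test, 2 above 0 and 2 below. Kit measured 375, 590 and 301 CPM in the during group, 645, 535 and 453 CPM in the after group and 324, 342 and 413 CPM with AOM only. The cromolyn groups overlapped, with a log2 difference of -0.36 (SE 0.22, 95% interval -0.85 to 0.13, adjusted p from edgeR 0.660). It was -0.68 without during library 2, -0.17 without during library 3 and -0.22 without after library 1. Kit is also found on interstitial cells of Cajal in the gut wall, and their part in its level was not tested. Cpa3, the mast cell carboxypeptidase, measured 105, 25 and 44 CPM against 51.8, 28.6 and 38.9 CPM, and during library 1 held 48 of the 80 counts of its group. Its log2 difference was 0.53 (SE 0.47), and -0.22 without that library. Gata2, a transcription factor of the mast cell lineage, differed by 0.28 (SE 0.34). It differed by 0.05 without after library 3 and by 0.0079 without that library and during library 1. Hpgds, the prostaglandin D synthase, differed by -0.06 (SE 0.20), and 0 of the 4 tested mast cell genes were apart between groups.

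The granule protease genes were near the limit of the panel. Tpsb2, a tryptase of connective tissue mast cells, gave 3, 3 and 0 counts in the during group and 10, 9 and 6 counts in the after group, with 4, 2 and 3 counts in the AOM-only group. Pooled over libraries the after group held 3.91 times the share of the during group, with an exact 95% interval from 1.56 to 11.6 that covers counting error only, and between 2.62 and 5.32 times when 1 library was left out. The gene was below the filter for testing and has no p. Cma1, a chymase, gave 14 counts against 17, Hdc, the enzyme that makes histamine, 7 against 14, and Ms4a2, a subunit of the IgE receptor, 1 against 6. Tpsab1, the other tryptase gene, gave 0 counts in all 6 libraries, which at 3 counts over each group allows a level of up to 2.13 CPM in the during group and 1.99 CPM in the after group, before scaling. The panel's tryptase genes are close copies of each other, so their counts are uncertain.

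Other leukocyte lists had medians near 0 or high levels in single libraries. B and plasma cell genes had 7 of 12 tested above 0 (median 0.03). Without during library 1 their median was -0.66, with 2 of 12 above 0, and without after library 3 it was 0.76, with 8 of 12 above 0. Lymphoid tissue genes had 6 of 11 above 0 (median 0.0047), with medians of -0.38 and 0.56 without the same libraries in turn. Cxcl13, the chemokine that forms B cell follicles, measured 1650, 428 and 741 CPM against 317, 586 and 899 CPM, and its log2 difference of 0.64 (SE 0.54) became -0.05 without during library 1. Regulatory T cell genes had 7 of 10 above 0 (median 0.20, and 0.05 without during library 1 or after library 1) and dendritic cell genes 3 of 7 (median -0.05, and 0.17 without after library 3). Of the eosinophil and type 2 genes, Prg2, the major basic protein of eosinophil granules, measured 85.1, 71.1 and 69.4 CPM against 33.8, 55.4 and 46.3 CPM without overlap (log2 difference 0.73, SE 0.28, adjusted p from edgeR 0.443). The median of that list was 0.16 over 6 tested genes and -0.35 without during library 1, which was high in Ccl11 (489, 252 and 236 CPM against 213, 283 and 270 CPM) and Il13 (48.0, 11.5 and 6.94 CPM against 27.9, 26.7 and 22.2 CPM).

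**Figure D4:**
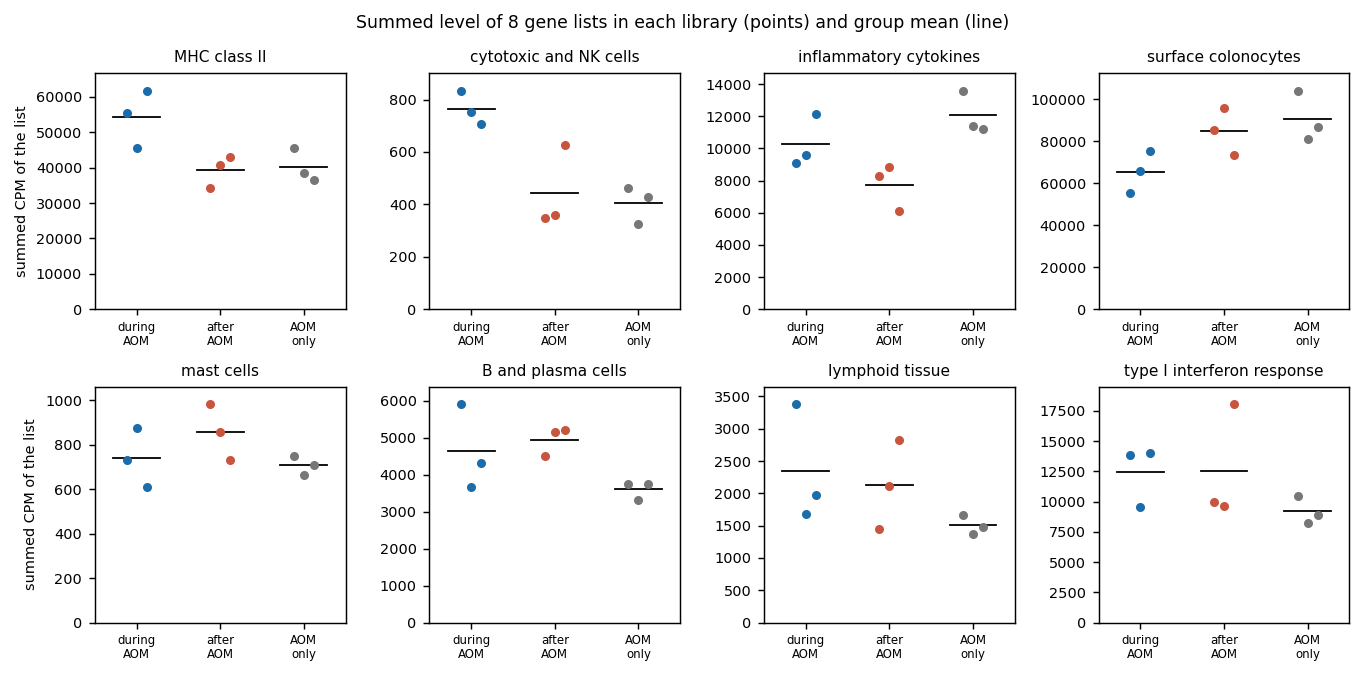
Summed CPM of 8 gene lists (y axes, each from 0) in the 3 libraries of each group, with points for libraries and lines for group means. The during and after points do not overlap for MHC class II, cytotoxic and NK cells and inflammatory cytokines, the last a sum with a large part from Il18. They overlap for the other lists, surface colonocytes among them. B cell, lymphoid and type I interferon sums are highest in single libraries.

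The AOM-only group was used to place the cromolyn groups without a test, since both would share it as a reference. For all 11 of the 24 genes that were lower in the during group, the AOM-only mean lay nearer to the during mean than to the after mean. For the 13 genes that were higher in the during group it lay nearer to the during mean in 5 (Spon2, Klf2, Vegfc, Hey1 and Blvrb) and nearer to the after mean in 8, which include Nkg7, Ccl5, H2-Aa, H2-Ab1, Cd74, Psmb9 and Ubd. Over all tested genes it lay nearer to the during mean in 405 of 768 (52.7%). Nearer does not mean alike. In Psmb9, Ceacam12 and Nr4a2 every AOM-only library lay below every cromolyn library, and in Vegfc every AOM-only library lay above them.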

How the data were processed

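RNA of colon lesions was read with the QIAseq Targeted RNA Mouse Immuno-Oncology panel on a MiSeq sequencer, per the labels' protocols. The authors deposited raw counts per gene, with no normalisation, per the table's whole-number values. The submitters' processing notes name mm9 and DESeq2, without versions. Neither the aligner nor the unit counted (reads or molecular tags) is given in the sources used here. The exact interval of Tpsb2 takes each count as independent and may be too narrow. Intervals of log2 differences come from the edgeR fit and include the spread between libraries. The table held 988 genes and 5 control entries at 0, which were dropped.

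Counts of 9 libraries (during, after and AOM only) were tested with edgeR 4.0.16 (R 4.3.3): TMM scaling, filterByExpr (minimum count 10, minimum total 15), robust quasi-likelihood fits and Benjamini-Hochberg adjustment over the 768 tested genes at 0.05, leaving 220 untested. All log2 differences are during minus after. The alternatives were DESeq2 1.42.0, other scalings, filters and sample sets, and leaving out each library. The test was checked on simulated data. Chi-square per degree of freedom between replicates was at least 5.85, so none was taken for a second deposit of another.

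The members and the 33 gene lists (705 names, 288 on the panel) were chosen with earlier results of these data known. Named were the mast cell genes, the 24 genes of smallest p and up to 4 genes of smallest p per list. Car4, Epcam, Ms4a1, Irf7, Ciita, H2-Eb2, H2-Oa, Rpl13a, Tnf, Il1b and the genes of the last section were named after their values were seen. Genes under a mean of 10 counts appear as counts only.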

Additional observations from a re-analysis of the deposited data

How the results depend on the processing

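The count of 0 genes past the threshold was also found with RLE size factors, without the low-count filter, with a mean of at least 50 counts, with all 25 libraries of the table, without robust dispersions and without the 2 libraries highest in B cell genes, the last chosen after seeing the data. It was 6 with DESeq2, 3 with library totals (Emp1, Me1 and Tmigd1), 6 with housekeeping scaling (Ceacam1, Ceacam12, Emp1, Me1, Pdia3 and Tmigd1, all lower) and 1 with the 6 cromolyn libraries only (Me1). Leaving out 1 library gave 0 to 3. The 64 genes below an unadjusted p of 0.05 became 217 with housekeeping scaling (4 higher, 213 lower), 19 with all 25 libraries, and 40 (without during library 3) to 124 (without during library 2) when 1 library was left out. Deviations of same-numbered libraries from their group means correlated with r of -0.520, -0.0743 and -0.160. These values cannot decide whether the samples were paired, since the deviations within each group sum to 0. With the replicate block 0 genes passed and 60 lay below an unadjusted p of 0.05.

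Of 64 named genes 47 kept their direction in every alternative, and 1211 of 1262 alternative values kept direction and side of the threshold. The cause of the other changes was not tested. Housekeeping scaling reversed Ccl11 (-0.017), Cd14 (-0.041), Cd6 (-0.091), Cd8a (-0.028), Cr2 (-0.078), Gata2 (-0.105), H2-Eb1 (-0.084), Ifi27 (-0.0026), Il33 (-0.038) and Psmb10 (-0.014). Leaving out the 2 libraries highest in B cell genes reversed Ccl11 (-0.022), Cpa3 (-0.24), Cr2 (-0.061) and Oas2 (0.15). With 1 library left out the values spanned 0 for Bank1 (-1.09 to 0.22), Ccl11 (-0.066 to 0.54), Cd6 (-0.030 to 0.69), Cpa3 (-0.22 to 0.91), Cr2 (-0.66 to 0.89), Cxcl13 (-0.046 to 1.06), Hpgds (-0.18 to 0.011), Il13 (-1.42 to 0.20), Madcam1 (-0.53 to 0.091) and Oas2 (-1.26 to 0.55). Of 520 list medians 487 moved by less than the spread between libraries. At this depth 220 of 988 genes were too low to test.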

Other observations

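No proliferation gene passed the test. All 5 tested members lay below 0, with a median of -0.11, which was 0.01 with 3 of 5 above 0 without after library 1. Mki67, the cell cycle marker, measured 2660, 1721 and 1884 CPM in the during group, 2417, 1989 and 1941 CPM in the after group and 1430, 1256 and 1287 CPM with AOM only. Birc5, an inhibitor of apoptosis that works in cell division, measured 4605, 3256 and 3966 CPM against 4957, 3707 and 4125 CPM, and between 2156 and 3076 CPM with AOM only. Both cromolyn groups thus lay above AOM only in every library for these 2 genes, a difference that was not tested.

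Immune checkpoint genes had 10 of 15 tested above 0 (median 0.15, and -0.10 without during library 1). Nt5e, the enzyme CD73 that makes adenosine, measured 1091, 1003 and 1100 CPM against 1700, 1646 and 979 CPM (log2 difference -0.44, SE 0.18). Large differences with wide spread were found in Fabp4, the lipid carrier of adipocytes and vessels, at 478, 311 and 613 CPM against 167, 239 and 207 CPM, and 1291, 302 and 391 CPM with AOM only (log2 difference 1.19, SE 0.54). Mt2, a metallothionein, measured 1999, 2167 and 4507 CPM against 1841, 1850 and 1701 CPM, where during library 3 was the highest. Mlph, which links Rab27a to the motor that moves granules, measured 1178, 1308 and 620 CPM against 1891, 1710 and 1423 CPM without overlap (log2 difference -0.69, SE 0.24, adjusted p from edgeR 0.383).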
